A study of Mus musculus with 8 samples.

Results

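The late phase of activation in Gfi1-knockout T cells was read from 2 of the 8 arrays of the series: the knockout-labelled array at 24 h and the knockout-labelled array at 8 h of stimulation. The arrays were picked by their titles, and the change was taken as log2 of the 24 h signal over the 8 h signal for each of the 22690 probe sets. Spleen cells of Gfi1-knockout C57Bl/6 mice had been enriched for T cells with a pan-T kit on an AutoMACS magnetic separator, then cultured with antibodies to CD3 and CD28 (2 µg antibody per ml) for 24 h or for 8 h. For context, values are also given from the knockout-labelled arrays taken untreated (0 h) and at 4 h, and from the wild-type-labelled C57Bl/6 arrays at 24 h and 8 h with the same antibodies; the wild-type arrays at 0 and 4 h are only plotted. Each genotype and time was 1 array, so the values below are sizes with no replicate error and no test. The titles give all knockout arrays one number and all wild-type arrays another, so genotype and that numbered source cannot be told apart. The kind of Gfi1 allele, the ages of the mice and any pooling of mice are not given in the sources used here. No array holds cells kept in culture without the antibodies, so time in culture and stimulation cannot be told apart.

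Antibodies to CD3 and CD28 engage the T cell receptor and its costimulator. The cells first switch on immediate early transcription factors and cytokines, then a growth programme led by Myc, and later copy their DNA and divide. Gfi1 is a zinc finger repressor of transcription that acts in T cells and in blood progenitors, where it is known to hold down myeloid genes. The Gfi1 probe set read 9885 at 24 h and 6459 at 8 h on the knockout-labelled arrays, against 3966 at 24 h and 5259 at 8 h on the wild-type-labelled arrays. The knockout-labelled arrays were thus the higher at both times, and since no source used here says which exons the allele lacks, this probe set does not check the genotype labels. Genes of the labelled cell type were also read. Of the 18 listed genes of T cell identity, 14 were on the array, and all of those read above the floor on both knockout-labelled arrays. Genes of neutrophil precursors did so too, with 10 of 10 primary granule genes above the floor on both. Of all 12393 genes, 7176 were above the floor on both, and a signal above it does not tell which cells it came from.

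Signals are linear MAS5 intensities, which the authors scaled to a common trimmed mean; they can be compared between arrays for 1 probe set but not between probe sets. A floor of 142, the median over the arrays of their 40th percentile, was set under every signal, and a gene was counted as measured when it exceeded the floor on at least 1 of the 2 arrays. A change is called higher or lower when it reached 2-fold, and a change against a floored signal is a lower bound. Of 12393 genes, 8272 were measured; 534 of them (6.46%) were higher at 24 h than at 8 h, 621 (7.51%) were lower, and the median change was 0.07 on the log2 scale. Over probe sets, 886 of 14609 (6.06%) were higher and 1026 (7.02%) were lower. Restricted to the 7176 genes above the floor on both arrays, 438 (6.1%) were higher and 539 (7.51%) lower. Changes of 4-fold or more numbered 82 upward and 129 downward, and of 8-fold or more 15 upward and 40 downward. The 24 h array had 61.5% of probe sets above the floor and the 8 h array 58.7%, and the 3′ to 5′ signal ratio of Gapdh, a sign of RNA integrity, was 0.813 at 24 h and 0.770 at 8 h. An 18S ribosomal RNA control set (5′ end) stood apart, at 37640.2 on the 24 h array and 2441 on the 8 h array; its part in the changes below was not tested. The control probe sets above the floor were all higher on the 24 h array (62 of 62). Of these, 45 report bacterial and phage transcripts, and their log2 differences lay between 0.13 and 0.79 with a mean of 0.44; on the wild-type-labelled arrays the mean was -0.98. With each array divided by the geometric mean of these sets, an alternative chosen after seeing the data, 207 genes were higher and 1222 lower in the knockout, and the median of all genes was -0.36. On that scale the medians of 12 gene lists turned negative: immediate early genes, the Myc network, IL-2 receptor and SOCS feedback, the BCL2 family, G1 cyclins and inhibitors, oxidative phosphorylation, ribosomal proteins, the proteasome, annexins, macrophage lysosome genes, dendritic cells, and eosinophils, basophils and mast cells. The values below are on the deposited scale. The wild-type changes were not recomputed on the control-set scale, and the control sets had means of opposite sign in the 2 genotypes. Contrasts between knockout and wild type are thus given for the deposited scale alone. Whether they hold on the control-set scale was not tested. In the wild type, 435 of the same 8272 genes (5.26%) were higher at 24 h than at 8 h and 549 (6.64%) were lower, with a median of 0.00. The gene lists used below hold genes of known function or cell type. Their counts include members that passed the floor through 1 array alone, and they are to be read against these shares and medians of all measured genes.

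**Figure D1:**
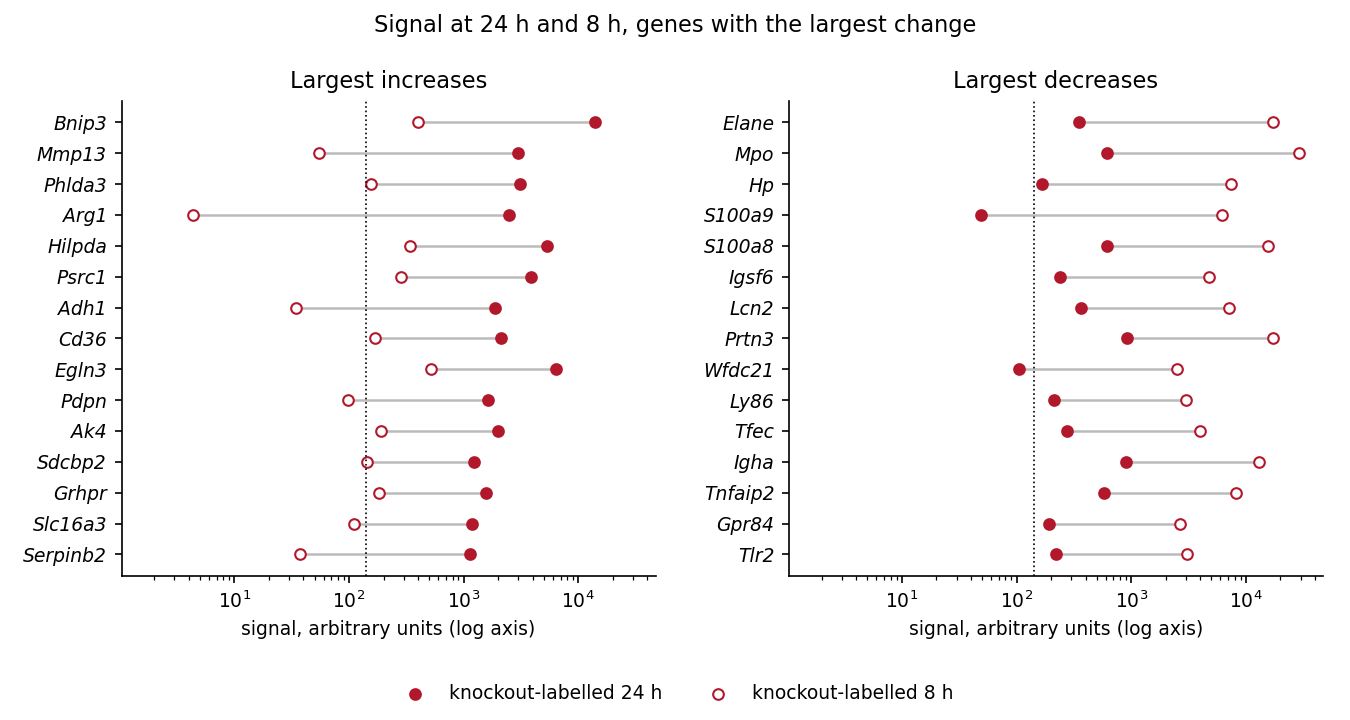
Signals on the knockout-labelled arrays at 24 h and at 8 h for the 15 genes with the largest increase and the 15 with the largest decrease, ranked with signals under the floor set to it, on a log axis of linear MAS5 signal; filled points are 24 h, open points 8 h, the dotted line is the floor and each point is 1 array. With signals under the floor set to it, Elane, Mpo, Hp and S100a9 have the widest gaps among the decreases and Bnip3 and Mmp13 among the increases. The points are drawn without the floor, so the drawn gap of Arg1 (2488 at 24 h and 4.40 at 8 h) is wider than that of Bnip3.

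The deepest decreases of the comparison were in neutrophil granule genes. Elane, neutrophil elastase, read 352 at 24 h and 17312 at 8 h, which is 49.2-fold lower. Mpo, the myeloperoxidase that makes hypochlorous acid, read 614 at 24 h and 28936 at 8 h, and Prtn3, proteinase 3, read 925 and 17268 in the same order. All 3 enzymes are stored in the primary granules that promyelocytes build, and all 3 had stayed high through the earlier cultures: Mpo read 33134, 41519.6 and 28936 at 0, 4 and 8 h. Of the 10 measured genes of the primary granule list (of 12 listed), 8 fell and 1 rose, with a median change of -3.34 on the log2 scale against 0.07 for all genes. The member that rose was Nkg7, a granule membrane protein that cytotoxic lymphocytes also carry, with 9604 at 24 h and 3688 at 8 h; it was named after its value was seen. The summed signal of the list was 18758 at 24 h and 109387 at 8 h on the knockout-labelled arrays, against 6850.2 and 7071 on the wild-type-labelled arrays at the same times. Nkg7 is part of these sums, and so is Igsf6, a receptor of myeloid cells that is among the 8 that fell. In the wild type Mpo, Elane and Prtn3 fell too, by -2.04, -1.60 and -1.49 on the log2 scale, each a lower bound. Their wild-type signals were under the floor at 24 h (119, 99.7 and 11.2) and read 585, 429 and 397.5 at 8 h. The sizes of these falls thus cannot be set against those in the knockout. Over the list 3 genes fell and 0 rose in the wild type (median -0.47, with signals under the floor set to it). In whole-sample RNA, fewer cells of a type and less RNA per cell cannot be told apart.

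Genes of later neutrophils fell alongside. S100a8 and S100a9 encode the 2 chains of calprotectin, which fills the neutrophil cytosol. S100a8 read 609.6 at 24 h and 15478 at 8 h, and S100a9 read 48.7, under the floor, at 24 h and 6151 at 8 h, which is at least 43.4-fold lower. Lcn2, the iron-scavenging lipocalin of secondary granules, read 362 and 7076 at the same times, and Cybb, the oxidase subunit gp91phox, read 785 and 9464. In the secondary granule and mature neutrophil list, 9 of 11 measured genes (of 17 listed) fell and 0 rose, with a median of -3.34 (-2.17 with no filter on low signals). Another 3 (Ltf, Mmp9 and Cxcr2) were at the floor on both arrays. In the wild type 4 of the same 11 genes fell and 0 rose (median -0.44, with signals under the floor set to it). S100a8 there read 134, under the floor, at 24 h and 1268 at 8 h. Hp, the haemoglobin scavenger haptoglobin, read 166 at 24 h and 7359 at 8 h, and Wfdc21, a secreted protein with a WAP domain, read 105, under the floor, and 2509. Igsf6, an immunoglobulin-like receptor of myeloid cells that was counted in the primary granule list, read 241 at 24 h and 4726 at 8 h. Anxa3, an annexin abundant in neutrophils, changed by -3.02 on the log2 scale, with 584 at 24 h and 4746 at 8 h. On the knockout-labelled arrays Elane, S100a8, Lcn2 and Hp each read less at 24 h than at any earlier time.

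Monocyte genes were mixed, and those with the largest changes were lower. Lyz2, lysozyme, read 2512 at 24 h and 24610.2 at 8 h, and Csf1r, the receptor through which monocytes receive their survival signal, read 1889 and 9723. The signalling adaptors Tyrobp and Fcer1g changed by -2.23 and -1.98 on the log2 scale. Of 17 measured monocyte and macrophage genes, 7 fell, 2 rose and the rest were within 2-fold (median -0.84). Among myeloid transcription factors, 9 of 15 fell and 1 rose (median -1.18). Spi1, which encodes PU.1, the master factor of the myeloid lineage, read 485 at 24 h and 3261 at 8 h; Cebpd, a C/EBP factor induced in inflammation, was under the floor at 24 h (130.5) and read 1480.4 at 8 h; Tfec, a macrophage member of the Mitf family, read 276 and 3949. Tlr2 and Ly86, a receptor for bacterial lipopeptides and an accessory chain of a Toll-like receptor, changed by -3.79 and -3.85. Gpr84, a receptor for medium-chain fatty acids that myeloid cells induce, read 190.1 at 24 h and 2685 at 8 h, and Tnfaip2, induced by tumour necrosis factor, read 581 and 8216. Tlr2 and Gpr84 had been low before stimulation (249 and 120.5 at 0 h), so their 24 h signals lay near the unstimulated ones, whereas Spi1 at 24 h was well under its 2539.7 at 0 h.

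A second set of macrophage genes ran the other way. Mmp13, the collagen-cutting collagenase 3, read 2994 at 24 h and 54.2 at 8 h, at least 21.1-fold higher. Arg1, the arginase that marks alternatively activated macrophages, read 2488 at 24 h and 4.40 at 8 h, at least 17.5-fold higher. Cd36, a scavenger receptor for lipids, read 2134 and 168, and Mmp12, the macrophage elastase, read 826 and 15. Mmp13, Arg1 and Mmp12 were under the floor at 0, 4 and 8 h in the knockout and at both times in the wild type, so their signal was seen on the 24 h knockout-labelled array alone among these 6 arrays. Over the macrophage lysosome, lipid and matrix list the directions were mixed, with 8 higher and 4 lower of 22 measured genes and a median of 0.04, whose sign turned under quantile normalization and under scaling by the array median. Serpinb2, plasminogen activator inhibitor 2, which macrophages secrete, read 1139.9 at 24 h and 37.5 at 8 h, and Pdpn, podoplanin, a glycoprotein of stromal cells and of activated macrophages, read 1624 and 98.1; both were under the floor at 8 h. Of the tissue macrophage list, 8 of 12 genes on the array were at the floor on both arrays, among them C1qa, C1qc, Cd5l and Marco; of the 4 measured, 2 fell (Vcam1 and Axl) and 0 rose (median -1.22, -0.52 with the floor at the 20th percentile and 0 with no filter on low signals). The calls of Mmp12 and Axl ended when the floor was raised to the 60th percentile. Over the same interval the summed signal of the monocyte list was 30831 at 24 h and 75232 at 8 h, and its part in these changes was not tested.

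Some inflammatory myeloid genes that had risen early in culture fell back. Clec4e, the receptor Mincle, read 1033, 12414, 10804 and 1317 at 0, 4, 8 and 24 h, and Saa3, an acute phase protein, read 170.1, 7963, 10503 and 1369. Both remained above their unstimulated signal. Others stayed up: Ptgs2, the inducible cyclooxygenase, read 45.3, 4639, 4643 and 5907 at those times, and Cd14, a receptor for bacterial lipopolysaccharide, read 541, 4314, 3589.8 and 5197 (both named after their values were seen). Il12a, the p35 chain of interleukin 12, was under the floor at 24 h (82.7) and read 949.9 at 8 h, and Sod2, the mitochondrial superoxide dismutase, read 4680.2 and 17999.5. With the floor at the 60th percentile the call of Il12a ended. In all, 8 of 17 measured genes of this list fell and 0 rose (median -0.43).

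The largest increase of a gene measured on both arrays was in Bnip3, a mitochondrial protein of mitophagy and cell death that oxygen shortage induces. It read 379, 339.8 and 401 at 0, 4 and 8 h and 13923 at 24 h, which is 34.7-fold over 8 h. Genes of this kind are switched on by HIF1, a dimer that binds the letters ACGTG when oxygen is short, and they include most enzymes of glycolysis. Egln3, the prolyl hydroxylase PHD3 that marks HIF for destruction and is itself a HIF target, read 6360.4 at 24 h and 515 at 8 h. To show where the HIF letters lie, the 250 bases before the start of both genes are printed 5′ to 3′ on the gene's strand (RefSeq, GRCm38.p6), with the matches to ACGTG on either strand in capitals. Bnip3 (chr7:138909507-138909756, minus strand) and Egln3 (chr12:54203875-54204124, minus strand) were chosen for printing after the matches were seen.
Bnip3: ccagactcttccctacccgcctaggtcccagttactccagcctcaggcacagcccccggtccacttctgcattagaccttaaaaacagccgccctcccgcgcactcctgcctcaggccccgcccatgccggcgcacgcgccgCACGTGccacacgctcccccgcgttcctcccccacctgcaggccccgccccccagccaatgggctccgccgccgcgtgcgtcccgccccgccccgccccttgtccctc
Egln3: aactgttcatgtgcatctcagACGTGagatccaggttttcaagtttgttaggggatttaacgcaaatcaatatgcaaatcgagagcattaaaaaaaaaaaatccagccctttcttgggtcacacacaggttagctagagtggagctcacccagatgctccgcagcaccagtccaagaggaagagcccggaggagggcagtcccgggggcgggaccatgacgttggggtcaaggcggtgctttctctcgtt
In Bnip3 the forward and reverse matches overlap in a palindrome 108 bases before the start, and in Egln3 the match begins 229 bases before it. Over the list, 16 of 27 start windows (59.3%) held the letters, against 16.6% of all 32851 windows of the table and 22.0% of those of genes measured here. A match is a description of the sequence and not a binding site.

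Of the 21 measured glycolysis and hypoxia-inducible genes (of 24 listed), 19 were higher at 24 h and 0 were lower, and the median change was 1.55. The lowest of all members was still positive, at 0.67. Tpi1, triose phosphate isomerase, read 31630.3 at 24 h and 4688 at 8 h; Ldha, which turns pyruvate into lactate, read 45933 and 17366; Slc2a1, the glucose transporter GLUT1, read 12881 and 2703. Slc16a3, the lactate exporter MCT4, was under the floor at 8 h (111) and read 1179.8 at 24 h. Ldha and Slc2a1 were taken from the list after their values were seen. Outside the list, Hilpda, a lipid droplet protein induced by hypoxia, read 5286 at 24 h and 339 at 8 h, and Ak4, a mitochondrial adenylate kinase, read 1992 and 192. The array's own control probe sets for Gapdh, another glycolytic enzyme, ran the same way, at 50454 and 25031 for the 3′ set. On the wild-type-labelled arrays the median of the same list was 0.56, with 4 genes higher and 1 lower. Bnip3 there read 522 at 24 h and 219.7 at 8 h, so it was above its 8 h signal in both genotypes but at 24 h far lower in the wild type. Genes of oxidative phosphorylation, the other route of energy supply, stayed within 2-fold in all 24 measured cases (median 0.16).

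**Figure D2:**
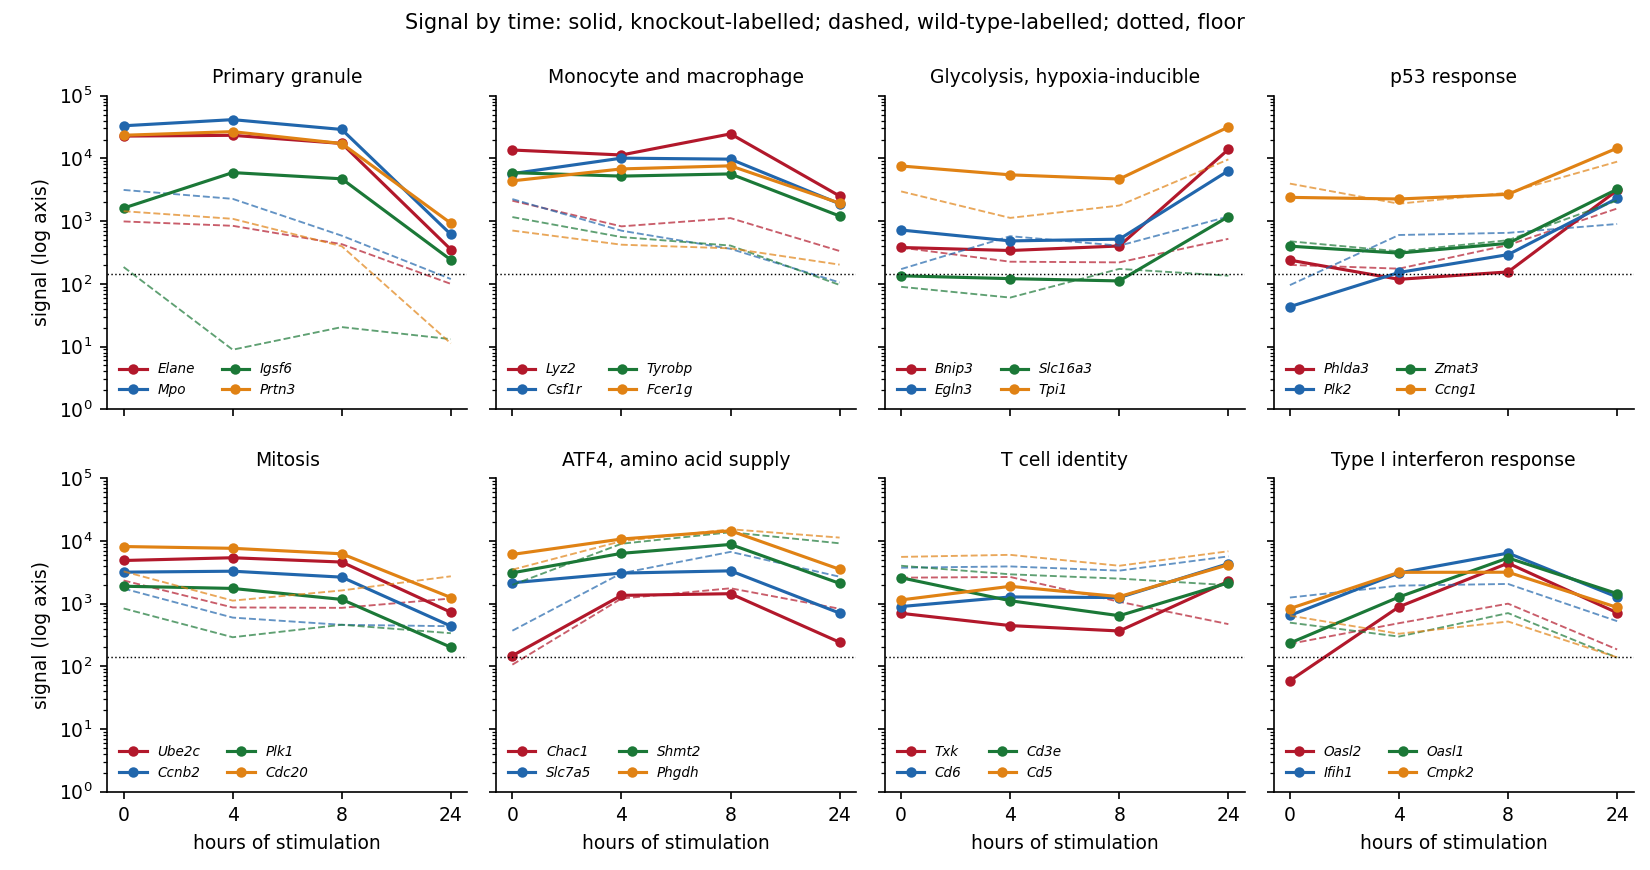
Signals at 0, 4, 8 and 24 h (equally spaced, not to scale) on a log axis for the 4 genes with the largest change in 8 of the lists, with 1 knockout-labelled array (solid lines) and 1 wild-type-labelled array (dashed lines) at each time and the floor as a dotted line. Elane and Mpo stay high to 8 h and drop at 24 h in the knockout-labelled arrays, while Bnip3 stays low to 8 h and reads 13923 at 24 h.

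Genes that the tumour suppressor p53 switches on after DNA damage or stress rose. Phlda3, an inhibitor of Akt, read 3093 at 24 h and 155 at 8 h, a log2 change of 4.32. Cdkn1a encodes p21, which halts the cell cycle by blocking cyclin-dependent kinases, and read 292, 5824, 3664 and 14590.5 at 0, 4, 8 and 24 h. Zmat3, an RNA-binding target of p53, read 3224 at 24 h and 442 at 8 h; Ccng1, cyclin G1, read 14584 and 2674; Plk2, a stress-induced polo-like kinase, read 2307 and 292. Of 16 measured members 9 rose and 1 fell, with a median of 1.498. Psrc1, a microtubule-binding protein known to respond to p53, read 3838 at 24 h and 285 at 8 h. In the wild type the list's median was 0.31 and 4 genes rose and 4 fell; Phlda3, Zmat3 and Ccng1 were among those that rose, with log2 changes of 1.94, 2.10 and 1.64. Of the 12 members with a start window in the RefSeq table, Cdkn1a was the one that held a pair of CATG cores spaced as in a p53 element (CATG, 6 bases of any kind, CATG, either strand), and the 250 bases before 1 of its 2 annotated starts (chr17:29090729-29090978, plus strand, RefSeq GRCm38.p6) are shown with the match in capitals.
Cdkn1a: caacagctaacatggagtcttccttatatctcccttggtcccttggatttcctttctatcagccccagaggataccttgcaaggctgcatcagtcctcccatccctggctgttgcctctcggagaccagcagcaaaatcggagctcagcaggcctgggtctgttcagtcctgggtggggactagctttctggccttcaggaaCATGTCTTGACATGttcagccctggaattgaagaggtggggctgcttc
The match begins 48 bases before the start, and the letters were found in 0.490% of all windows and 0.309% of those of genes measured here. Other inhibitors of cyclin-dependent kinases rose as well: Cdkn2d (p19) read 2564 at 24 h and 1005 at 8 h, and Cdkn1b (p27) read 1782 and 829. The other Cdkn1b probe set changed by -0.07, and the gene was under 2-fold by the median of the pair. The list of G1 cyclins, kinases and inhibitors held 3 higher and 0 lower of 18 measured, and the sign of its median (0.02) turned under scaling by the array median.

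Genes of mitosis were lower at 24 h almost throughout in the knockout and not in the wild type. Of 24 measured mitotic genes (of 25 listed), 22 fell and 0 rose, with a median of -1.80. Ube2c, the ubiquitin-conjugating enzyme of the anaphase-promoting complex, read 728 at 24 h and 4598 at 8 h; Ccnb2, cyclin B2, read 438 and 2641; Plk1, the polo kinase of mitotic entry, read 201 and 1165. Cdc20, the activator of that complex, read 1250.5 at 24 h and 6225 at 8 h, with all 3 of its probe sets lower. These genes were not low in the unstimulated knockout sample: Ube2c read 4867, Plk1 1892 and Cdc20 8128 at 0 h. On the wild-type-labelled arrays 11 of the same genes rose and 0 fell (median 0.95). Cdk1, the kinase that drives mitosis, read 829 at 24 h and 3205 at 8 h in the knockout, against 2189 at 24 h and 653 at 8 h in the wild type, so the knockout was lower at 24 h and the wild type lower at 8 h. The difference between the genotypes could not be tested with 1 array each. The primary granule list holds markers of promyelocytes, which divide, and also Nkg7 and Igsf6. Its summed signal moved with the mitosis list in the knockout (18758 at 24 h and 109387 at 8 h), and its part in the decrease was not tested.

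Genes of the late cell cycle are known to share a CCAAT box and the cell cycle homology region TTTGAA before their start. They were searched for on either strand in the 250 bases before the start of the mitotic genes, and 2 promoters are printed with the matches in capitals, Ccnb2 (chr9:70421555-70421804, minus strand) for its 4 matches and Plk1 (chr7:122159185-122159434, plus strand) for its CCAAT box close to the start (RefSeq, GRCm38.p6; chosen after the matches were seen).
Ccnb2: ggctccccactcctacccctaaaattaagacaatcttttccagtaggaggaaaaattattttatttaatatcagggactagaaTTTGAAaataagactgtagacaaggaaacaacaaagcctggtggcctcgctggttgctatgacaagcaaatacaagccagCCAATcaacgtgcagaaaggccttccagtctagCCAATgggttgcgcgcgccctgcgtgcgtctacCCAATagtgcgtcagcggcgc
Plk1: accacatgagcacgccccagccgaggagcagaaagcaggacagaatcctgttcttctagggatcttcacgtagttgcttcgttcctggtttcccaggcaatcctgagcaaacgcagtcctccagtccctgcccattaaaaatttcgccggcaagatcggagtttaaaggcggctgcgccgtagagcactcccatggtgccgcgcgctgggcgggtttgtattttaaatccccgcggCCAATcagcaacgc
In Ccnb2 the TTTGAA match begins 167 bases before the start and the CCAAT boxes 87, 54 and 21 bases before it; in Plk1 the box begins 14 bases before the start. A CCAAT box was found in 17 of 21 windows of the list (81.0%) and in 33.8% of all windows, and TTTGAA in 8 of 21 (38.1%) against 16.0%. Among genes measured here the shares were 35.1% and 10.4%.

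Genes of DNA replication and nucleotide supply moved less in the knockout. Of 28 measured, 4 fell, 0 rose and the median was -0.55. Those that fell were Tk1 (thymidine kinase), Mcm10 (an origin firing factor), Fen1 (the flap nuclease) and Rpa2 (a single-strand binding subunit). Tk1 read 161 at 24 h and 504 at 8 h, and Mcm10 read 278 and 739. The calls of Tk1 and Mcm10 ended with the floor at the 60th percentile, and that of Rpa2 with quantile normalization. In the wild type 26 of the 28 genes rose and 0 fell, with a median of 1.93; Tk1 there read 725 at 24 h and 202 at 8 h. The summed signal of the list was 54309 at 24 h and 68846 at 8 h on the knockout-labelled arrays, against 130301 and 54801 on the wild-type-labelled arrays. The 2 genotypes thus ended the interval on opposite sides of their own 8 h level, which was not tested.

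**Figure D3:**
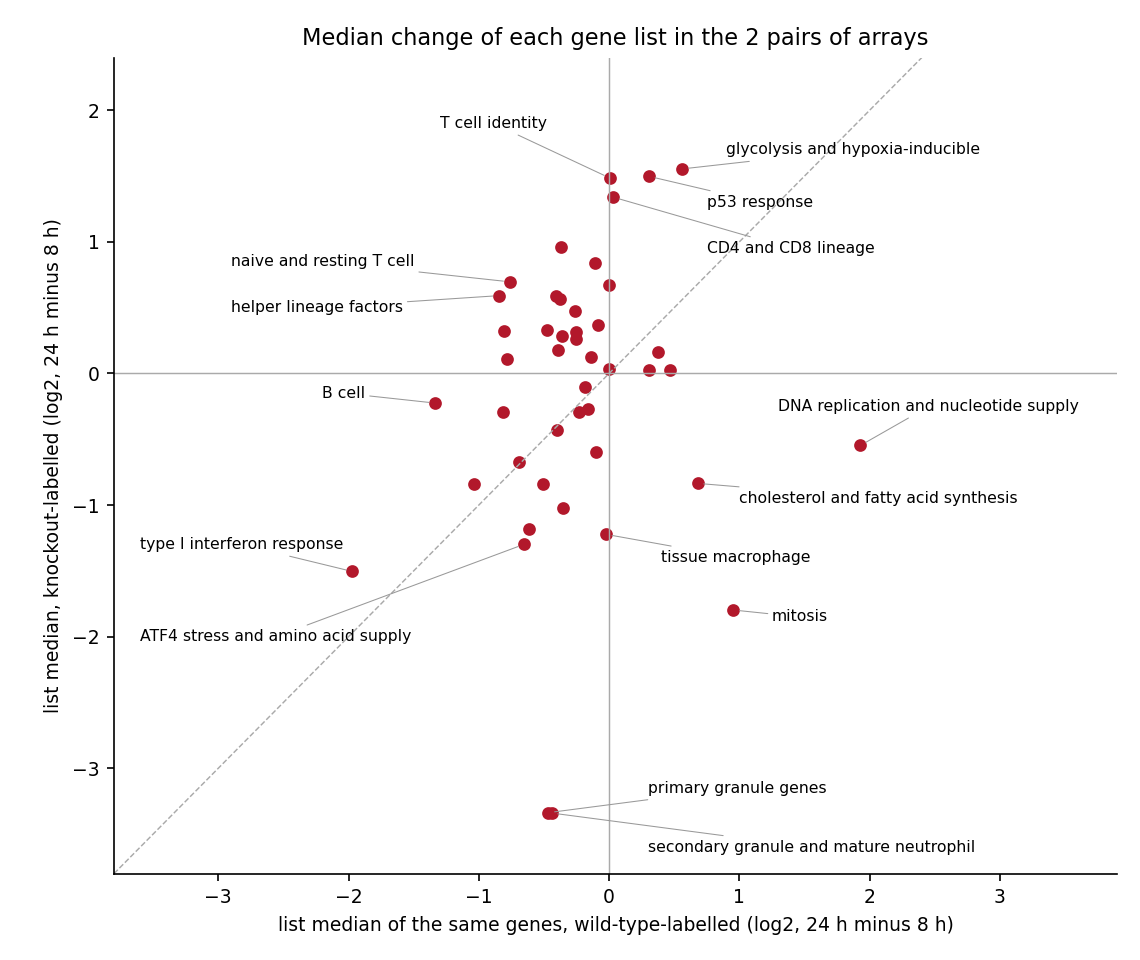
Median log2 change of each gene list from 24 h over 8 h, the knockout-labelled arrays on one axis and the wild-type-labelled arrays on the other, over the genes measured in the knockout; the dashed diagonal marks equal change. Mitosis (-1.80 in the knockout and 0.95 in the wild type) and DNA replication (-0.55 and 1.93) have opposite signs, both granule lists lie far below 0 in the knockout, and the interferon response lies below 0 in both.

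Most genes of ATF4 stress and amino acid supply fell. Chac1, which breaks down glutathione and is induced by the stress factor ATF4, read 148, 1352, 1438 and 242 at 0, 4, 8 and 24 h. Slc7a5, a chain of the transporter that carries large neutral amino acids into activated T cells, read 705 at 24 h and 3330.2 at 8 h. Phgdh, the first enzyme of serine synthesis, read 3524 and 14493, and Shmt2, the mitochondrial enzyme that passes serine carbon to folate, read 2102 and 8773. In the ATF4 stress and amino acid supply list 14 of 20 measured genes fell and 0 rose (median -1.299, against -0.65 with 5 lower in the wild type). Atf4 itself stayed within 2-fold, at 10215 at 24 h and 9648 at 8 h. Slc3a2, the partner chain of Slc7a5, did so too, at 9475.5 and 9746.5 (both named after their values were seen). Of the aminoacyl-tRNA synthetases, many of which ATF4 also drives, 9 of 16 fell and 0 rose (median -1.02). Vars, which loads valine, read 672 at 24 h and 2242 at 8 h, and Wars (tryptophan), Aars (alanine) and Tars (threonine) changed by -1.39, -1.31 and -1.27.

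ATF4 and its C/EBP partners bind the C/EBP-ATF element TGATGNAA, and the promoters of Chac1 (chr2:119350992-119351241, plus strand) and of Asns (chr6:7693210-7693459, minus strand), the asparagine synthetase of the same list, are shown because both hold it within 250 bases of the start (RefSeq, GRCm38.p6; match in capitals, either strand; chosen after the matches were seen).
Chac1: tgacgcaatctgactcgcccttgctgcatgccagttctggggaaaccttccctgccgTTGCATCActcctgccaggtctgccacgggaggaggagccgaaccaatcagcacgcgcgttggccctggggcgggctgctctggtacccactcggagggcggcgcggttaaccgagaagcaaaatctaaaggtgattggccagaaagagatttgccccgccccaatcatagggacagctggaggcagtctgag
Asns: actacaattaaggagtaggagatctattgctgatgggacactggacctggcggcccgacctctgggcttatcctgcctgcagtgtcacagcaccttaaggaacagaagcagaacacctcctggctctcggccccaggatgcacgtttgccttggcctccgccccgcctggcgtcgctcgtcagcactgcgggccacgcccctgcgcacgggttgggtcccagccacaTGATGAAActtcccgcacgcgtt
The match begins 193 bases before the start of Chac1 and 23 bases before that of Asns. It was found in 3 of 19 windows of the list (15.8%) and in 3.45% of all windows (1.98% of those of genes measured here). Asns itself read 1953 at 24 h and 7532 at 8 h.

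Myc, the transcription factor that drives the growth programme, read 2962 at 24 h and 7019.7 at 8 h, and its partner Max read 1143 and 2911; both fell. Mxi1, which competes with Myc for Max, rose and read 2543 at 24 h and 869 at 8 h. Over the 10 genes of this network the count was 1 higher and 2 lower (median 0.26). Ribosome biogenesis factors mostly stayed within 2-fold, with 1 higher (Polr1c) and 1 lower (Rrs1, under 2-fold with quantile normalization) of 23 and a median of -0.27. Genes of cholesterol and fatty acid synthesis, which rise together when sterols are short, had 7 of 17 lower and 0 higher (median -0.84). Fdps, farnesyl diphosphate synthase, read 3080.2, 3724, 7407 and 1862 at 0, 4, 8 and 24 h, and Hmgcs1, the HMG-CoA synthase, read 1691, 6195, 11577 and 2951, so both peaked at 8 h. In the wild type the list had 5 genes higher and 0 lower, with Fdps at 2913 and 1441 at 24 h and 8 h.

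Interferon response genes fell in both genotypes. These genes answer type I interferon through the factor ISGF3 and restrict viruses. Ifih1, the RNA sensor MDA5, read 647, 3076, 6389.5 and 1272 at 0, 4, 8 and 24 h, and Oasl2, a member of the oligoadenylate synthetase family, read 59, 888, 4412 and 714. Oasl1 and Cmpk2 changed by -1.89 and -1.87. All 4 were high at 8 h and still at or above the unstimulated signal at 24 h. Of 19 measured genes 14 fell and 0 rose (median -1.504); on the wild-type-labelled arrays 14 fell and 0 rose (median -1.97). The interferon-stimulated response element is a spaced repeat of GAAA, searched here as GAAA, 2 bases of any kind and GAAA on either strand, and the promoter of Ifit1 (chr19:34640639-34640888, plus strand, RefSeq GRCm38.p6) is shown because it holds 2 matches (in capitals; chosen after they were seen).
Ifit1: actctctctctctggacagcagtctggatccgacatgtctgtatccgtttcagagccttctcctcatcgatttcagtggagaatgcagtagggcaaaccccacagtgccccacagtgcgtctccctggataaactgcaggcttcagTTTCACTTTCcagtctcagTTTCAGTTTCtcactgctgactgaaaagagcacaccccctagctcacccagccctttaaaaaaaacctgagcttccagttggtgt
The matches begin 104 and 85 bases before the start. The element was found in 6 of 18 windows of the list (33.3%), against 2.98% of all windows and 2.84% of those of genes measured here. Ifit1 read 1268 at 24 h and 4134 at 8 h.

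Of the interferon-inducible GTPases, which attack the vacuoles of intracellular microbes, 4 of 9 fell and 0 rose (median -0.84, against -1.03 in the wild type). Gbp3 read 1860.2 at 24 h and 6045 at 8 h, and Irgm1 read 3814 and 8862. Chemokine ligands were split, with 6 higher and 6 lower of 17 (median 0.37). Those that interferon gamma induces to draw T cells fell: Cxcl9 read 161, 28174, 35507 and 5491 at 0, 4, 8 and 24 h, and Cxcl10 and Cxcl11 changed by -2.59 and -2.47. In the wild type Cxcl9, Cxcl10 and Cxcl11 changed by -1.92, -2.53 and -1.13. Cxcl11 there was under the floor at 24 h (31), so its change is a lower bound. Ifng, which encodes interferon gamma, rose in the knockout, at 28817 at 24 h and 12112 at 8 h (named after its value was seen). Ccl7, which draws monocytes, was under the floor at 8 h (69) and read 826 at 24 h; with the floor at the 60th percentile its call ended. Genes that supply peptides to class I of the major histocompatibility complex (MHC) had 1 of 13 lower, the immunoproteasome subunit Psmb10 (2688 at 24 h and 8031 at 8 h), and 0 higher (median -0.29). The class I chains H2-K1 and H2-D1, whose near-identical sequences the probes may share, changed by 0.66 and 0.66. In the MHC class II list (median -0.30) 1 of 8 fell, H2-DMa, which loads peptides, with 683 at 24 h and 1830.2 at 8 h.

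Genes that define T cells rose. Of 14 measured T cell identity genes 11 were higher at 24 h and 1 was lower, with a median of 1.49. Cd3e, a signalling chain of the T cell receptor complex, read 2583, 1111, 641 and 2144 at 0, 4, 8 and 24 h, so its 24 h signal was above the 8 h one but below the unstimulated one. Txk, a Tec-family kinase of T cells, read 2269.6 at 24 h and 366 at 8 h, and the surface receptors Cd6 and Cd5 read 4339 and 4166 at 24 h, against 1249 and 1290.5 at 8 h. The gene that fell was Trat1, a receptor-interacting adaptor, with 168 at 24 h and 447 at 8 h (named after its value was seen). Summed over the list the signal was 65196 at 24 h and 25998 at 8 h in the knockout, against 69732 and 68537 in the wild type. The rise went with the fall of the granule and monocyte lists, and the part of cell composition in it, and in the T cell receptor, cytokine and cytotoxic genes described next, was not tested. Both T cell lineages showed it: Cd8a read 6781 at 24 h and 1701 at 8 h, Cd8b1 4571 and 1322, and Cd4 859.6 and 339.7, under 2-fold with the floor at the 60th percentile. Zbtb7b, the helper lineage factor ThPOK, changed by -0.61, with its 2 probe sets in opposite directions.

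Genes of naive and resting T cells had 6 higher and 0 lower of 16 (median 0.70, against -0.76 with 7 lower in the wild type). Ccr7, the receptor that guides T cells and dendritic cells to lymph nodes, read 1707, 1961, 5329.9 and 32252 at 0, 4, 8 and 24 h. On the wild-type-labelled arrays it read 12552 at 24 h and 16363 at 8 h. Il7r, the interleukin 7 receptor that keeps resting cells alive, read 3479 at 24 h and 1160.2 at 8 h, and had been 6581 at 0 h. Lef1 and Satb1, nuclear factors of T cell precursors and resting cells, changed by 2.03 and 1.57; that of Lef1 was under 2-fold with the floor at the 60th percentile.

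Several costimulatory and inhibitory receptors rose. Ctla4, the inhibitory counterpart of CD28, read 9493 at 24 h and 2758 at 8 h; Lag3, an inhibitory receptor for MHC class II, read 2054 and 474; Tnfrsf9 (4-1BB) read 18483 and 5478; Tnfrsf18 (GITR) read 14249.9 and 4208. All 4 were at their highest knockout signal at 24 h. In that list 8 of 16 rose and 1 fell (median 0.96, against -0.37 in the wild type). Over the same interval the T cell identity genes summed to 65196 at 24 h and 25998 at 8 h and the primary granule genes to 18758 and 109387. In the regulatory T cell list, which shares Ctla4 and Tnfrsf18, the count was 4 higher and 1 lower of 11 (median 0.47); the gene that fell was Nrp1, neuropilin 1, with 589.6 at 24 h and 1827 at 8 h. Il2ra, the inducible chain of the interleukin 2 receptor, read 209.9, 1898, 3124 and 6478 at 0, 4, 8 and 24 h, and Il2rb, the signalling chain, read 3245 at 24 h and 1409.5 at 8 h; the change of Il2ra was just under 2-fold when arrays were scaled by their median. With SOCS feedback genes included (median 0.28), 3 of 13 genes rose and 1 fell, Il15ra, the interleukin 15 receptor chain (712 at 24 h and 1723 at 8 h).

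T cell cytokines moved in both directions, with 7 higher and 2 lower of 20 (median 0.56). Il21, which helps B cells, read 2331 at 24 h and 362 at 8 h; Il13, a cytokine of type 2 helper cells, read 995 and 242; Tnf, tumour necrosis factor, read 171, 6269, 2454 and 563 at 0, 4, 8 and 24 h. Tnf thus peaked at 4 h while Il21 and Il13 were highest at 24 h. Among helper lineage factors 5 of 16 rose and 2 fell (median 0.59). Il12rb2, the inducible chain of the interleukin 12 receptor, read 1464 at 24 h and 246 at 8 h, and Gata3, the factor of type 2 helper cells, read 509.9 and 195. Id2, an inhibitor of E proteins, read 13177 at 24 h and 4248 at 8 h, and Eomes, a T-box factor of cytotoxic cells, read 287 and 791. On the wild-type-labelled arrays Id2 read 3483 at 24 h and 3315 at 8 h. The calls of Gata3 and Eomes ended when the floor was raised to the 60th percentile.

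Cytotoxic genes rose in 6 of 13 measured cases and fell in 1 (median 0.84, 0.25 with no filter on low signals); Gzmd, Gzme, Gzmf, Gzmg and Gzmk were at the floor on both arrays. Gzmb, granzyme B, read 1194, 1487, 16876 and 54298 at 0, 4, 8 and 24 h, and rose in the wild type too (23388 at 24 h and 5075 at 8 h). Prf1, perforin, read 1674 at 24 h and 559 at 8 h, and Fasl, the death ligand, read 2045 and 450. Ccl5, the chemokine of memory and cytotoxic cells, fell to 4370.1 at 24 h, against 13006 at 8 h. Of the natural killer list only 4 of 10 genes on the array were measured, with Ncr1 and Klra8 among those at the floor, and 1 rose (median 0.59, 0 with no filter): Klrd1, the CD94 chain shared with cytotoxic T cells (3664 at 24 h and 933 at 8 h).

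Immediate early genes, which answer receptor signalling within minutes, had 3 higher and 1 lower of 26 (median 0.32, against -0.81 with 9 lower in the wild type). Egr2, a factor induced by receptor signalling, read 246, 5534, 2616 and 1133 at 0, 4, 8 and 24 h. Ier3, a stress-response gene, read 5189.9 at 24 h and 1821 at 8 h, and Dusp1, a phosphatase that shuts off MAP kinases, read 3843 and 1887, while in the wild type Dusp1 read 988 at 24 h and 4009 at 8 h. The knockout change of Dusp1 was just under 2-fold with array-median scaling. In the BCL2 family, which sets the threshold of apoptosis, 1 of 10 rose and 1 fell (median 0.12). Bcl2, which protects cells, read 1227 at 24 h and 447 at 8 h, and Bid, which links death receptors to mitochondria, read 735 and 1588, a change under 2-fold on the log2(signal + floor) scale. The stress-induced chaperones Hspa1b and Hspa1a, whose sequences are nearly identical so that their probe sets may share targets, were the 2 of 13 heat shock genes that fell (median of the list -0.10); Hspa1b read 376 at 24 h and 2322 at 8 h, and the call of Hspa1a ended with the floor at the 60th percentile. Cytosolic ribosomal proteins and proteasome subunits stayed within 2-fold in all 15 and 19 measured cases; the median of the ribosomal proteins (0.33) turned its sign under quantile normalization, and that of the proteasome (0.03) under quantile and array-median scaling.

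**Figure D4:**
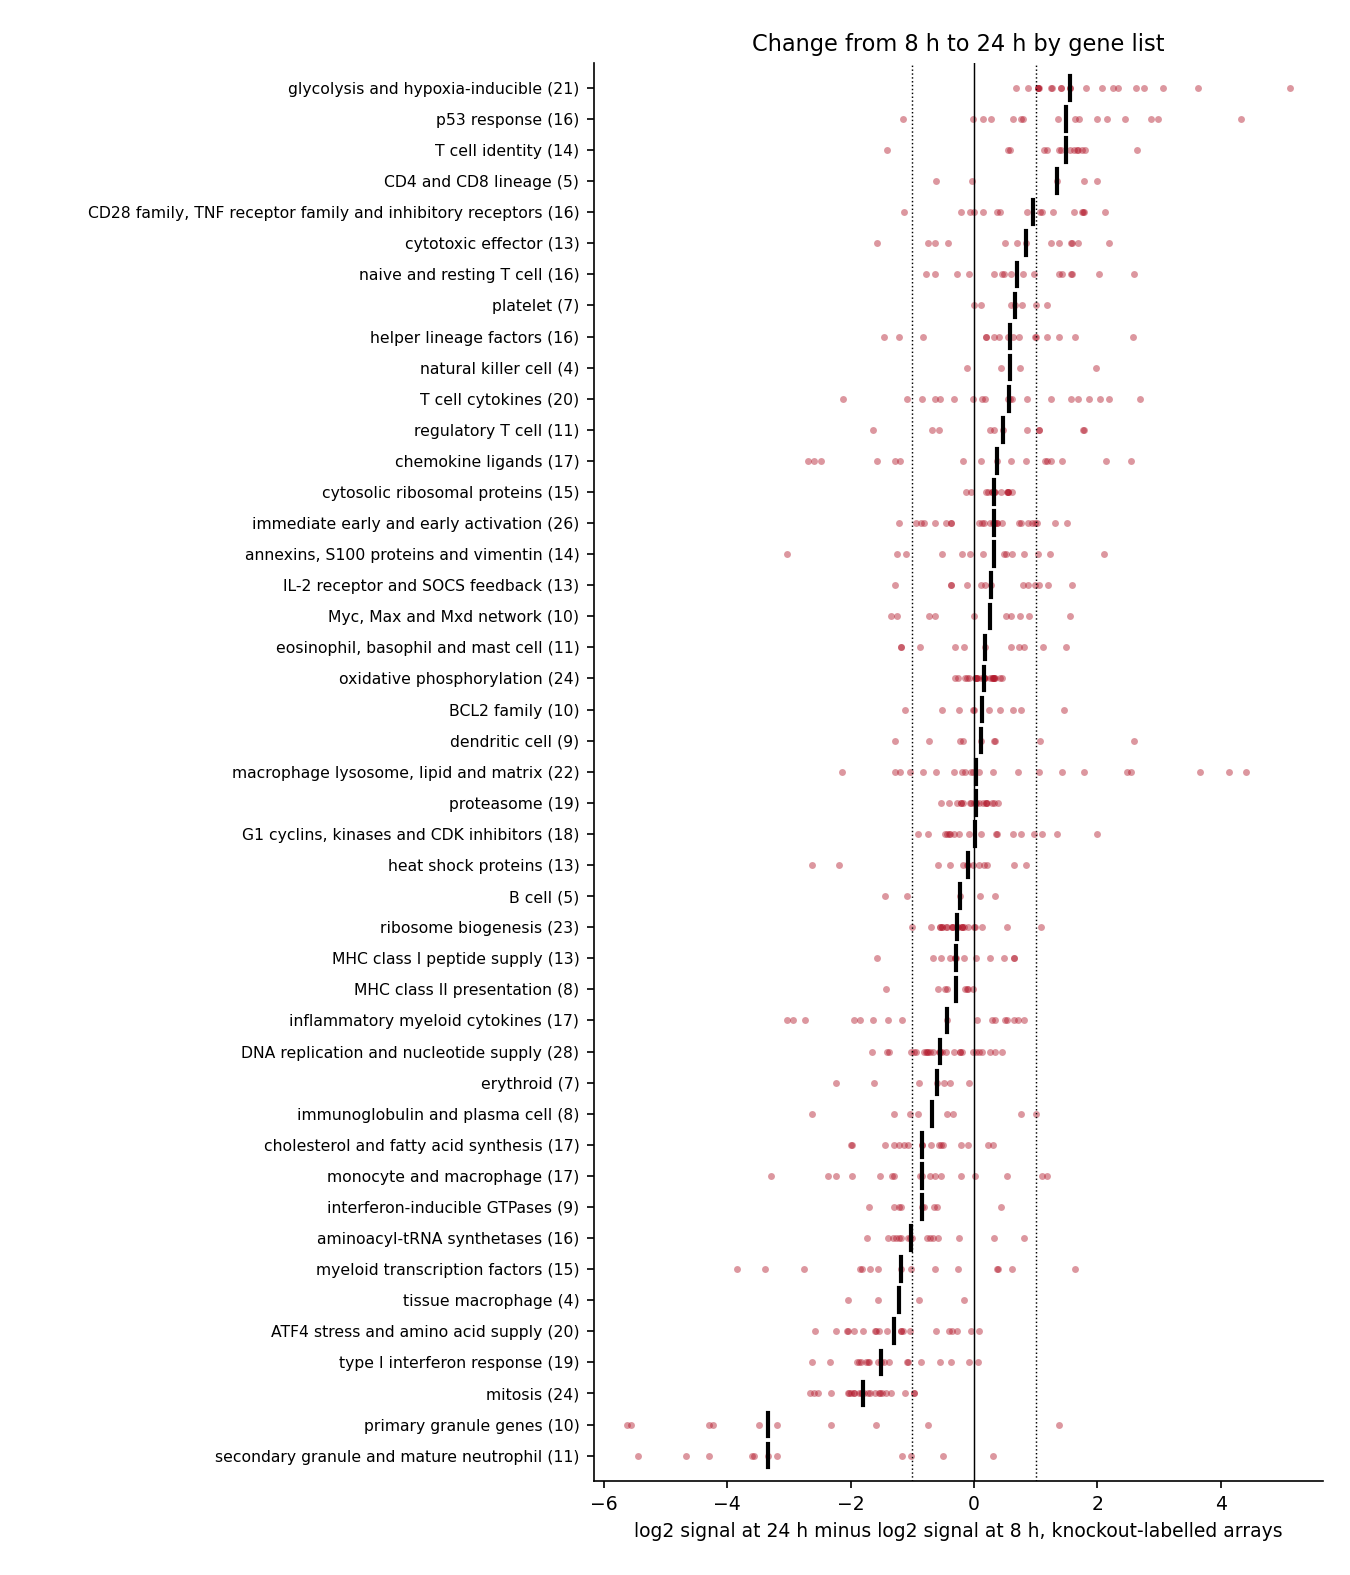
Log2 change at 24 h over 8 h on the knockout-labelled arrays for each measured gene (points) and the median (bar) of the gene lists, sorted by median, with dotted lines at 2-fold and the number of measured genes after each name. The granule, mitosis, interferon and ATF4 lists lie to the left of 0 and the T cell identity, p53 and glycolysis lists to the right.

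Markers of other cells that a spleen preparation could hold differed by cell type, from B cell genes mostly at the floor to the plasma cell gene Jchain, far above it. Of 12 B cell genes on the array, 7, among them Cd79a and Pax5, were at the floor on both arrays, and of the 5 measured 2 fell (Cd79b and Blk) and 0 rose (median -0.23); the summed signal was 2204 at 24 h and 2563 at 8 h. In the immunoglobulin and plasma cell list 3 of 8 fell and 1 rose (median -0.67). Jchain, which joins secreted antibody units, read 3149 at 24 h and 19518 at 8 h, and Igha, the IgA heavy chain measured by a probe set that may match related chains, read 910.1 and 12910.4. Both fell in the wild type too. Jchain there read 270 at 24 h and 3383 at 8 h, and Igha read 74.7, under the floor, and 1539. Of the erythroid genes 2 of 7 fell and 0 rose, the carbonic anhydrases Car1 (193 at 24 h and 912 at 8 h) and Car2, while Hba-a1 and Alas2 were at the floor; the median was -0.60, -1.396 with the floor at the 20th percentile and -1.62 over genes above the floor on both arrays. The dendritic cell list had 2 higher and 1 lower of 9 (median 0.11), with Flt3 and Xcr1 at the floor, and shares Ccr7 with the naive T cell list. Among eosinophil, basophil and mast cell genes 2 rose, Fcer1a and Cpa3, and 2 fell, Kit and Prg2, of 11 (median 0.18). Platelet genes had 2 higher, Pf4 (under 2-fold on the log2(signal + floor) scale) and Itga2b, and 0 lower of 7 (median 0.67). At 8 h 4 of these 7 were at the floor, so they were measured through the 24 h array alone and could not fall. The list of annexins, S100 proteins and vimentin had 3 higher and 3 lower of 14 (median 0.32); Lmna, lamin A, and Anxa2 rose, at 2531 and 17138 at 24 h and 591 and 7268 at 8 h, and S100a4 fell, at 1507 and 3567. Another Lmna probe set changed by -0.03. Raising the floor to the 60th percentile ended the calls of Cd79b, Blk, Car1, Fcer1a and Itga2b, and the median over probe sets ended that of Kit.

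Among the leading increases, 3 were in genes of other kinds. Adh1, an alcohol dehydrogenase that also oxidises retinol, read 1862 at 24 h and 34.2, under the floor, at 8 h. Grhpr, a glyoxylate reductase, read 1563 at 24 h and 182 at 8 h and rose in the wild type too (578 at 24 h and 185 at 8 h). Sdcbp2, a syntenin-family scaffold protein, read 1242 and 143 on the knockout-labelled arrays at 24 h and 8 h.

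The same interval in the wild type was set beside these changes. Of the 534 genes higher at 24 h in the knockout, 65 (12.2%) were higher in the wild type, against 5.26% of all these genes, 33 were lower and 436 were within 2-fold, of which 56 were at the floor on both wild-type-labelled arrays. Of the 621 lower genes, 133 (21.4%) were lower in the wild type, against 6.64% of all these genes, 47 were higher and 441 were within 2-fold (73 at the floor on both). The shared genes made up 14.9% of those higher and 24.2% of those lower in the wild type. Across the 7551 genes measured in both genotypes the 2 changes had a Pearson r of 0.18 and a Spearman rho of 0.14, a description across genes, which are not independent replicates. Where a gene had 2 or more measured probe sets, they mostly moved together: all had the same sign in 172 of 182 higher genes and 208 of 230 lower genes, and all reached 2-fold in 95 and 107 of them.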

How the data were processed

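The series holds 8 Affymetrix MOE430A_2.0 hybridisations of splenic T cell RNA, 1 for each genotype at each time. The deposited values are linear signal intensities, which the authors computed with GCOS 1.4 and MAS5, per the submitters' processing notes; the arrays' trimmed means were equal within rounding, so scaling had been applied. Depth does not apply to arrays, and with 1 array a group the precision is unknown.

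The signals were floored at 142, and log2 of the 24 h over the 8 h signal was taken with Python 3.11.15, NumPy 2.4.6 and pandas 2.3.3; figures were drawn with Matplotlib 3.10.9. For a gene with several probe sets, the brightest by mean over the 8 arrays was used. The platform annotation gave 20393 probe sets 1 symbol, 691 several and 1555 none, and only those with 1 were named. No deposited per-sample column was left out. Named genes were drawn from 198 that a rule selected, not all of which are named: the 15 genes with the largest increase and the 15 with the largest decrease (higher signal at least 4 times the floor, measured probe sets not opposed), the 4 largest changes in each list, the 10 largest opposite changes between genotypes, Gfi1 and cell type markers. A few others were named after their values were seen, as said beside them. The comparison, the 45 lists (770 genes, of which 680 were on the array and 623 were measured) and these rules were chosen with earlier results of these data known. The calculation was tested on simulated data. The alternatives were quantile and array-median scaling, other floors, folds and filters, a log2(signal + floor) scale, the median over probe sets, scaling by the bacterial control sets (counts and list medians only), and 2-fold relative to the median of all genes.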

Additional observations from a re-analysis of the deposited data

Results flagged for a closer look

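The values here were picked out because the 2 genotypes moved in opposite directions between 8 h and 24 h, each by 2-fold or more. With 1 array at each point the difference was not tested. The directions were read on the deposited scale alone. Between the same arrays the bacterial control sets changed by a mean of 0.44 in the knockout and -0.98 in the wild type (log2). The genes were not picked again on the control-set scale, so how many would still move 2-fold in opposite directions there is not known. Of the genes with a higher signal of at least 4 times the floor in both genotypes, 46 did so, 28 lower in the knockout and higher in the wild type and 18 the other way round. How many genes met this signal limit was not counted, so no share is given. Without the limit, 47 of the 621 genes lower in the knockout were higher in the wild type, against 5.26% of all measured genes. Of the 534 genes higher in the knockout, 33 were lower in the wild type, against 6.64%, which is near the share of all measured genes. The number of genes with opposite changes is therefore not read as a result. Of the 46, the 10 with the widest gap (knockout minus wild-type log2 change) follow.

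Ramp3, a partner chain of calcitonin-family receptors, had the widest gap at 5.53: it read 3395 at 24 h and 785 at 8 h in the knockout, against 214 and 2276 in the wild type. Ndrg1, a stress gene that hypoxia induces, had a gap of 4.14, with 6363 at 24 h and 2666 at 8 h in the knockout against 583 and 4306 in the wild type. Txk, the T cell kinase, had a gap of 3.82, and Fasl, the death ligand, of 3.71. Il1r2, the decoy receptor of interleukin 1, had a gap of 3.61, with 3606 at 24 h and 1048 at 8 h in the knockout against 195 and 696 in the wild type. These 5 rose in the knockout.

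The other 5 fell in the knockout and act in the cell cycle. Bub1, a kinase of the spindle checkpoint, had a gap of -4.25, with 360.1 at 24 h and 1437 at 8 h in the knockout against 766 and 161 in the wild type; another Bub1 probe set changed by -0.20 in the knockout. Shcbp1, an adaptor of the dividing cell's midbody, had a gap of -3.77, Mcm10 of -3.74, Cdk1 of -3.70 and Aurkb, the kinase of the chromosomal passenger complex, of -3.69. The median change of the mitosis list differed between knockout and wild type by -2.75, and that of the DNA replication list by -2.48; neither difference was tested.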

How the results depend on the processing

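The counts moved by over 1.5 times with the floor, the fold and the scaling by control sets. With the floor at the 20th percentile 2454 probe sets were higher and 1706 lower (1474 and 950 genes), and with it at the 60th 446 and 603 (284 and 396 genes). At 1.5-fold 2410 probe sets were higher and 2207 lower (1419 and 1262 genes), and at 4-fold 124 and 200 (82 and 129 genes). With log2(signal + floor) the counts stayed within 1.5 times, at 611 and 775 probe sets (370 and 473 genes). With each array divided by its bacterial control sets, chosen after seeing the data, they were 346 and 2083 (207 and 1222 genes). The other settings stayed within 1.5 times; quantile normalization gave 525 and 641 genes, array-median scaling 474 and 679, and counting relative to the median of all genes, also chosen after seeing the data, 451 and 680. Of the 198 genes the naming rule selects, 158 were past 2-fold. In the settings run on genes, which leave out the scaling by control sets, none of these turned its direction, 127 stayed past it in every setting and 31 did not, 22 of them with the floor at the 60th percentile. Zbtb7b, under 2-fold, changed sign by the median over its probe sets (0.36). Among list medians that moved, tissue macrophage was -0.52 with the lower floor and 0 with no filter, and secondary granule was -2.17, cytotoxic effector 0.25 and natural killer 0 with no filter; tissue macrophage was also 0 with the filter over all 8 arrays, and erythroid was -1.396, -1.27 and -1.62 with the lower floor, the higher floor and both arrays above the floor. No paired analysis was possible because each genotype and time had 1 array, and leaving out an array would leave no comparison.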

Other observations

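The arrays carry control probe sets for the transferrin receptor, which proliferating and iron-demanding cells display. On the knockout-labelled arrays its 3′ set read 5210 at 24 h and 2239.7 at 8 h, its middle set 1632 and 656, and its 5′ set 2322 and 697, so all 3 rose over an interval in which the mitotic genes fell; the bacterial control sets were higher by a mean of 0.44 on the log2 scale over the same interval. Of 62 control probe sets above the floor, 6 changed 2-fold or more, and all were higher at 24 h.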
